A study of Mus musculus with 8 samples.

Results

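The liver X receptor (LXR) pathway was followed in murine bone marrow-derived macrophages (BMDMs) through 10 genes: the receptors Nr1h2 and Nr1h3, their partner Rxra, and the target or neighbouring genes Abca1, Abcg1, Mylip, Apoe, Lpcat3, Soat1 and Ch25h. The genes were taken by name for their place in the pathway, without use of a threshold but with earlier results of these data known. All 10 were among the 55359 genes of the deposited table, and all 10 passed the filter on low values that left 16309 genes for testing. Total RNA of BMDMs from adult male and female C57BL/6 wildtype mice was sequenced in 4 groups of 2 samples, numbered 1 and 2. All BMDMs were differentiated with 20 ng/mL M-CSF and 20 ng/mL GM-CSF, and CD45+ cells were isolated with magnetic beads at harvest. Ctrl were naïve Mϕ without stimulation. LPS were naïve Mϕ stimulated for 6 h, with LPS at 100 ng/mL together with 100 U/mL of murine IFNγ. Eff were efferocytic Mϕ, that is, Mϕ co-cultured for 16 h with apoptotic NIH-3T3 fibroblasts at 5 apoptotic cells per Mϕ in the presence of 10 nM dimerizer. LPSEff were efferocytic Mϕ that were washed and then stimulated with LPS/IFNγ like the LPS group. The NIH-3T3 cells carry a caspase-8 domain that the dimerizer activates, so that only this engineered line was used as prey. It is a mouse line, and its transcripts cannot be told apart from those of the Mϕ. Co-culture and dimerizer are listed for Eff and LPSEff only, so that their effects cannot be told apart from those of efferocytosis.

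LXRs are nuclear receptors that bind oxysterols, the oxidized derivatives of cholesterol, and act on DNA as heterodimers with the retinoid X receptor. In Mϕ they are known for raising cholesterol efflux when sterols accumulate, as they do after uptake of lipoproteins or dying cells. Abca1 loads cholesterol and phospholipid onto lipid-poor apolipoprotein A-I, and Abcg1 passes cholesterol on to larger high-density lipoprotein particles. Mylip (also called Idol) is a ubiquitin ligase that lowers lipoprotein uptake, Apoe is a secreted acceptor for cellular cholesterol, and Lpcat3 is an acyltransferase that puts polyunsaturated chains into phospholipids. Soat1 (ACAT1) esterifies cholesterol for storage, and Ch25h makes 25-hydroxycholesterol, which is an LXR ligand, also holds back SREBP-2 processing and is known as an interferon-stimulated gene.

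The LXR element is a direct repeat of the half-site AGGTCA with a spacing of 4 bases (DR4). The 250 bases before the start sites of both efflux transporters are shown because the transcripts of the pair moved in opposite directions with LPS/IFNγ. They were read from GRCm39 with GENCODE start sites, and capitals mark a DR4 with up to 3 mismatches over its 12 half-site bases, which stands on the opposite strand at positions -62 to -47 of Abca1. Each line reads 5′ to 3′ on the strand of the gene.
Abca1, chr4:53159901-53160150, minus strand: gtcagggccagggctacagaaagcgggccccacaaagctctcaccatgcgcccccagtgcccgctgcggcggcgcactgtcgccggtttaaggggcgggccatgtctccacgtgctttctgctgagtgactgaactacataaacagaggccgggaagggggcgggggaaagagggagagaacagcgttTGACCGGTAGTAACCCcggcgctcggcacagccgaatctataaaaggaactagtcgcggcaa
Abcg1, chr17:31276411-31276660, plus strand: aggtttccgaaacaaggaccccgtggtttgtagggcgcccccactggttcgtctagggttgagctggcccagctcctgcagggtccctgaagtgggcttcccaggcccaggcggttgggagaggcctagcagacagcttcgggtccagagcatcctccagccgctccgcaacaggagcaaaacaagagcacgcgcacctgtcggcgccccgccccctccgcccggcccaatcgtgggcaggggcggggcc
With at most 2 mismatches on either strand, a DR4 was found in 0 of the 10 windows from 250 bases before to 50 bases after the start site, against 621 of the 21757 windows of protein-coding genes (2.9%). The looser search with up to 3 mismatches, chosen after the sequences had been seen, gave 1 match in Abca1 and 1 in Lpcat3, and such a match was held by 20.9% of all windows. The marked Abca1 element reads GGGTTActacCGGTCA on its own strand. The ISRE core (GAAA repeated after 2 bases) was in 0 of the 10 windows (3.8% of all windows), and a κB motif was in the windows of Rxra and Apoe (9.0% of all windows). These are matches of letters in short windows, and distal sites were not searched.

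Values are normalized counts, that is, reads per gene divided by a size factor of the sample. The reads could be recovered from the steps of the values and came to between 3481288 and 12020918 per sample, so that 3 reads correspond to 1.74 to 5.71 normalized counts. Each member had at least 69 reads in every sample. The 12 Mϕ markers summed to between 129948 and 188032 normalized counts per sample, and 3 of 12 lymphocyte and neutrophil markers were high enough to be tested. Of these 3, S100a8 was called higher in LPS than Ctrl (log2 fold change 0.98, limma adjusted p = 0.00427). It was also called higher in Eff than Ctrl (1.24, limma adjusted p = 0.0402). With the replicate block, LPS/IFNγ called 3 higher in naïve and 2 in efferocytic Mϕ, and efferocytosis 1 in each comparison. Dendritic cell markers summed to 2834 to 25589 and were higher in replicate 2 than in replicate 1 of every group. Of the 7 tested, LPS/IFNγ called 2 higher in naïve and 1 in efferocytic Mϕ (median log2 fold changes 1.42 and 1.14). With efferocytosis, 7 of 7 had a log2 fold change below 0 (medians -0.72 without and -0.81 with stimulation), of which limma called 0 and, with the replicate block, 3 in each comparison. Over all tested genes, these medians were -0.01 and -0.0. Efferocytosis called 0.251% and 0.773% of all tested genes in limma and 2.67% and 6.97% with the replicate block. For LPS/IFNγ the shares were 24.0% and 19.7%, and 41.2% and 37.0%. These shares also stand beside the counts of the other marker lists. The 25 fibroblast markers summed to 1900 to 2224 in Ctrl, 5972 to 8175 in LPS, 4112 to 8438 in Eff and 15411 to 15513 in LPSEff, and 9 of the 22 tested were called higher in Eff than Ctrl and 9 in LPSEff than LPS, although CD45+ cells had been isolated. With LPS/IFNγ, 6 of the 22 were called higher in naïve Mϕ (median log2 fold change 1.34), among them Pdgfrb, Lox and Fbn1, and 3 in efferocytic Mϕ (median 1.05). Neither Ctrl nor LPS had been co-cultured with NIH-3T3 cells, so that this rise in naïve Mϕ arose without prey. The sum of these markers is thus no measure of prey RNA alone. Col1a1 was at 7.62 and 12.1 in Ctrl against 193 and 284 in Eff, with 606 and 537 in LPSEff. The value of 7.62 in Ctrl replicate 1 is close to the 5.71 of 3 reads. With LPS/IFNγ in naïve Mϕ, Col1a1 was 2.5-fold higher and not called (limma adjusted p = 0.0539). The collagens Col4a2 (13.7-fold) and Col5a1 (2.78-fold) were called higher there. The part of the fibroblast and dendritic cell markers in the differences described below, with efferocytosis or with LPS/IFNγ, was not tested. In such bulk samples, fewer cells of a type and less RNA per cell cannot be told apart.

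**Figure D1:**
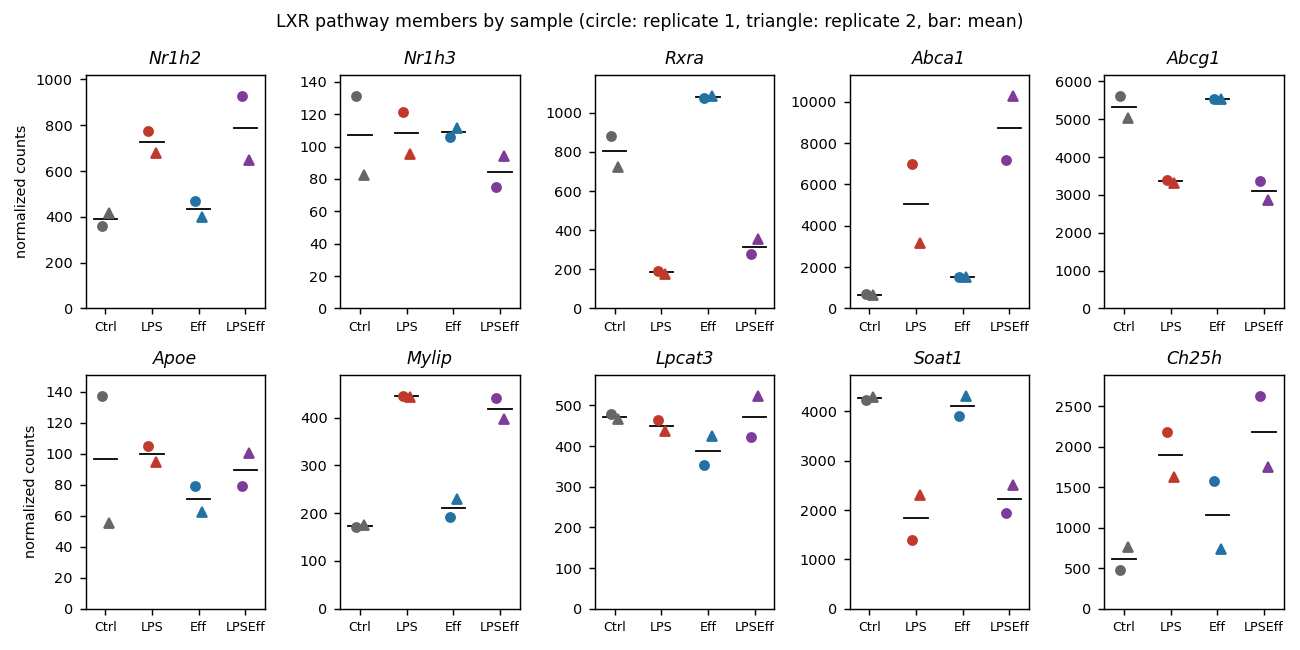
Normalized counts (linear axes from 0) of the 10 LXR pathway genes in the 8 samples, with a circle for replicate 1, a triangle for replicate 2 and a bar for the group mean. Rxra, Abcg1 and Soat1 lay lower and Abca1, Ch25h, Mylip and Nr1h2 higher in both stimulated groups than in both unstimulated groups, whereas Nr1h3, Apoe and Lpcat3 overlapped across stimulation. How many of all tested genes were set apart in this way was not counted.

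Stimulation of naïve Mϕ with LPS/IFNγ raised Abca1 7.00-fold, Ch25h 3.13-fold, Mylip 2.56-fold and Nr1h2 1.87-fold and lowered Rxra 4.33-fold, Soat1 2.38-fold and Abcg1 1.58-fold. These 7 of 10 members (4 higher, 3 lower) passed an adjusted p under 0.05 in limma, where 24.0% of all tested genes did (12.4% higher, 11.6% lower). In efferocytic Mϕ the same stimulation was called for 6 of 10 members (3 higher, 3 lower) against a background of 19.7% (10.7% higher, 8.95% lower). The 6 were all among the 7 of the naïve Mϕ, and Ch25h was the member not called there. Nr1h3, Apoe and Lpcat3 were called in neither comparison. The median log2 fold change of the members was 0.12 in naïve and 0.31 in efferocytic Mϕ, beside -0.01 and 0.01 over all tested genes, as rises and falls stood side by side. With all samples scaled to equal totals, the median of all genes shifted to -0.40 in naïve and -0.44 in efferocytic Mϕ. In each comparison 5 members were then called, beside 5735 and 5578 of the 16309 tested genes. The share of higher genes among all calls went from 51.5% to 24.8% and from 54.6% to 21.8%. Quantile normalization gave a share of 44.5% and 43.9%. Changes below are relative to the deposited scaling. Since the labels do not tie the samples to separate mice or cultures, the p-values measure the spread between these samples only. An exact permutation of 2 against 2 samples could not go below p = 0.333, so each p rests on the variance that limma shares across genes.

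Among the receptors, Rxra, 1 of the retinoid X receptors that pair with both LXRs, showed the largest decrease. Rxra (ENSMUSG00000015846, chromosome 2, 27566452 to 27653330, plus strand, GRCm39) was at 883.5 and 722 normalized counts in Ctrl and at 191 and 177 in LPS. In efferocytic Mϕ it was at 1075 and 1087 without and at 277 and 353 with stimulation. All stimulated samples lay below all unstimulated ones. The share of all tested genes set apart in this way was not counted, here or for the members below. The log2 fold change was -2.11 ± 0.20 (SE, n = 2 per group, limma adjusted p = 0.000281) in naïve and -1.79 ± 0.20 (limma adjusted p = 0.000649) in efferocytic Mϕ. The call was kept in all 8 fits that left out a sample in each of both comparisons.

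Rxra was also higher after efferocytosis in every sample pair, by 0.44 on the log2 scale without stimulation (95% interval -0.02 to 0.89, limma adjusted p = 0.843) and by 0.76 with stimulation (95% interval 0.31 to 1.22, limma adjusted p = 0.185). Neither was called. With the replicate number as a block, the latter difference passed (limma adjusted p = 0.0236). Rxrb, the gene of another retinoid X receptor, was between 272 and 347 normalized counts in all samples and was not called in any comparison (log2 fold changes from -0.19 to 0.03).

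Nr1h2 encodes LXRβ, the receptor found in most tissues, and went the opposite way to Rxra. Nr1h2 (ENSMUSG00000060601, chromosome 7, 44199036 to 44203406, minus strand) was at 362 and 416 in Ctrl, 776 and 679 in LPS, 468 and 401 in Eff, with 929 and 649.8 in LPSEff. The stimulated samples were all above the unstimulated ones. It rose by 0.90 ± 0.22 (SE) on the log2 scale in naïve (limma adjusted p = 0.0208) and by 0.84 ± 0.22 in efferocytic Mϕ (limma adjusted p = 0.0311). Both calls were lost with samples scaled to equal totals (log2 fold changes 0.50 and 0.39, limma adjusted p = 0.142 and 0.245). In naïve Mϕ the call was also lost without either Ctrl sample or LPS replicate 1, and in efferocytic Mϕ it was lost in 5 of 8 such fits.

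Nr1h3 encodes LXRα, which is typical of liver and Mϕ. Nr1h3 (ENSMUSG00000002108, chromosome 2, 91014394 to 91033417, minus strand) was at 131 and 82.7 in Ctrl, 122 and 95.5 in LPS, 106 and 112 in Eff, with 75.2 and 93.9 in LPSEff. The LPSEff samples lay below both Eff samples, but no comparison was called (limma adjusted p from 0.44 to 0.999). The 95% intervals of the stimulation effect were -0.62 to 0.72 in naïve and -1.04 to 0.30 in efferocytic Mϕ on the log2 scale. An exon of Nr1h3 overlaps an exon of Gm13783 on the same strand, and as reads in such an overlap are not counted for either gene, the level of Nr1h3 is uncertain.

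Within a sample, the ratio of Nr1h2 to Rxra counts was 0.409 and 0.576 in Ctrl and 0.435 and 0.369 in Eff. It was 4.05 and 3.84 in LPS and 3.35 and 1.84 in LPSEff. Unlike the fold changes, these ratios do not depend on the scaling of the samples.

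Of both efflux transporters, Abca1 showed the largest increase of all members. Abca1 (ENSMUSG00000015243, chromosome 4, 53030787 to 53159900, minus strand) was at 710 and 634 normalized counts in Ctrl, 6967 and 3172 in LPS, 1539 and 1546 in Eff, with 7162 and 10289 in LPSEff. The groups did not overlap, and the order was Ctrl, Eff, LPS and LPSEff, although LPS replicate 1 and LPSEff replicate 1 differed by only 1.03-fold. The means were 672 ± 53.6, 5070 ± 2680, 1542 ± 4.80 and 8725 ± 2210 (SD, n = 2) for Ctrl, LPS, Eff and LPSEff. LPS/IFNγ raised Abca1 by 2.81 ± 0.35 (SE) on the log2 scale in naïve (limma adjusted p = 0.00104) and by 2.48 ± 0.35 in efferocytic Mϕ (limma adjusted p = 0.00212), and both calls were kept in all 8 fits that left out a sample.

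Without stimulation, Abca1 was 2.30-fold higher in Eff than in Ctrl, with 2.16-fold in replicate 1 and 2.43-fold in replicate 2. This log2 difference of 1.20 ± 0.35 (SE) had a 95% interval of 0.40 to 2.00, but it did not pass the adjustment over all genes (limma adjusted p = 0.413, unadjusted p = 0.00858). The limma adjusted p was 0.059 when the replicate block was used. With stimulation, Abca1 was 1.83-fold higher in LPSEff than in LPS, and the 2 replicates differed, with 1.03-fold and 3.24-fold (limma adjusted p = 0.44).

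Abcg1 (ENSMUSG00000024030, chromosome 17, 31276649 to 31336969, plus strand) was at 5621 and 5030 in Ctrl and at 3390 and 3323 in LPS. It was at 5549 and 5529 in Eff and at 3377 and 2856 in LPSEff. Stimulated samples were thus all lower than unstimulated ones, while Eff lay within the range of Ctrl. Abcg1 fell by 0.66 on the log2 scale in naïve (SE 0.18, limma adjusted p = 0.0305) and by 0.83 in efferocytic Mϕ (SE 0.18, limma adjusted p = 0.0138). The calls were kept in 2 and 5 of the 8 fits that left out a sample, with adjusted p-values up to 0.153 and 0.0852. In naïve Mϕ the call stood only without either LPSEff sample, and in efferocytic Mϕ it was lost without either Eff sample or LPSEff replicate 2. Efferocytosis changed Abcg1 by 0.06 without (95% interval -0.35 to 0.47) and by -0.11 with stimulation (95% interval -0.52 to 0.30), neither of which was called.

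The ratio of Abca1 to Abcg1 counts within a sample was 0.126 in both Ctrl samples and 0.277 and 0.280 in Eff. It reached 2.06 and 0.955 in LPS and 2.12 and 3.60 in LPSEff. The groups were thus set apart from each other except for LPS and LPSEff, which were separated by 2.06 and 2.12 only, and the ratio does not depend on scaling. Levels per kilobase of exon compare genes only roughly. The exon length is the union over all transcripts of a gene and can exceed that of the expressed transcript, by factors that differ between genes. On this scale Abcg1 had the highest level of the 10 members in Ctrl, at 691 normalized counts per kb, and Abca1 ranked 7 at 54.8. Ch25h (447) and Soat1 (399) followed Abcg1, then Rxra (117) and Nr1h2 (112), Lpcat3 (59.3), Abca1, Mylip (52.2), Apoe (23.8) and Nr1h3 (21.2). The Ctrl samples of Ch25h and Soat1, of Rxra and Nr1h2, of Abca1 and Mylip and of Apoe and Nr1h3 overlapped, so that these neighbours were not ordered beyond their spread. In LPSEff, Abca1 was at 711 and Abcg1 at 404 normalized counts per kb, behind Ch25h at 1580.

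**Figure D2:**
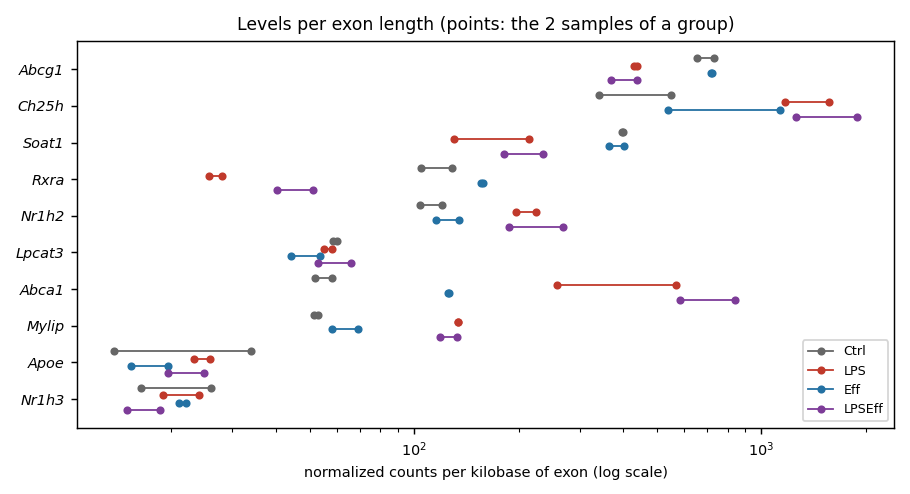
Normalized counts per kilobase of exon (log axis) of the 10 members in the 4 groups, with 1 point per sample and a line joining the 2 samples of a group. In Ctrl the levels ran from 21.2 for Nr1h3 to 691 for Abcg1, and Abca1 moved from 54.8 in Ctrl to 711 in LPSEff.

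Apoe (ENSMUSG00000002985, chromosome 7, 19430034 to 19434947, minus strand) was at 23.8 normalized counts per kb in Ctrl, beside 21.2 for Nr1h3. The level per kb rests on an exon union of 4.048 kb, which can exceed the expressed transcript. It was at 137 and 55.5 normalized counts in Ctrl, 105 and 94.4 in LPS, 78.9 and 62.1 in Eff, with 79.2 and 100.3 in LPSEff. The Ctrl samples spanned all others, and no difference was called. The interval of the stimulation effect in naïve Mϕ ran from -0.75 to 1.12 on the log2 scale, so that changes of about the size seen for Nr1h2 were not detectable for Apoe here.

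Mylip (ENSMUSG00000038175, chromosome 13, 45543215 to 45565501, plus strand) was at 171 and 175 in Ctrl and at 445 and 444 in LPS. It was at 193 and 229 in Eff and at 442 and 396 in LPSEff. The samples of a group were close to each other, and stimulated samples were all higher. Mylip rose by 1.35 ± 0.19 (SE) on the log2 scale in naïve (limma adjusted p = 0.0016, kept in 8 of 8 fits without a sample) and by 0.99 ± 0.19 in efferocytic Mϕ (limma adjusted p = 0.00775, lost without Eff replicate 1 or LPSEff replicate 1).

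Lpcat3 (ENSMUSG00000004270, chromosome 6, 124639765 to 124684440, plus strand) stayed between 352 and 523 normalized counts, with 478 and 466 in Ctrl, 463 and 438 in LPS, 352 and 426 in Eff, with 422 and 523 in LPSEff. No comparison was called, and the 95% intervals of its 4 log2 fold changes lay between -0.73 and 0.72. Of the 12 other acyltransferases of the phospholipid remodelling (Lands) cycle, all of which were tested, Lpcat2 rose by 1.48 in naïve and 1.43 in efferocytic Mϕ with LPS/IFNγ (limma adjusted p = 0.0048 and 0.00664). Lpcat2 makes phosphatidylcholine and the lipid mediator PAF. Mboat1 fell by 1.91 and 2.53, and Lpcat1 fell by 0.85 in efferocytic Mϕ, where the call was lost in 6 of 8 fits without a sample. Efferocytosis called 0 of the 12 in limma, edgeR and DESeq2, with 0 at an unadjusted p under 0.05 without and 1 with stimulation.

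Soat1 (ENSMUSG00000026600, chromosome 1, 156252095 to 156303864, minus strand) was at 4237 and 4284 in Ctrl, 1390.4 and 2297 in LPS, 3896 and 4307 in Eff, with 1936 and 2506 in LPSEff. The stimulated samples were all below the unstimulated ones. Soat1 fell by 1.25 on the log2 scale in naïve (SE 0.26, limma adjusted p = 0.0102) and by 0.89 in efferocytic Mϕ (SE 0.26, limma adjusted p = 0.0446). The first call was lost without either Ctrl sample (adjusted p up to 0.0566). The second was kept in 2 of 8 fits without a sample, those without an LPS sample, with adjusted p-values up to 0.227 in the others. Nceh1, a hydrolase of cholesteryl esters that acts opposite to Soat1, was at 2243 and 2202 in Ctrl and 384 and 823 in LPS, 2165 and 2088 in Eff, with 487 and 812 in LPSEff. Nceh1 fell as well, by 1.98 in naïve and 1.76 in efferocytic Mϕ (limma adjusted p = 0.00593 and 0.0115), the latter call being lost without either Eff sample or LPSEff replicate 1.

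Ch25h (ENSMUSG00000050370, chromosome 19, 34451178 to 34452564, minus strand) was at 474 and 764.5 in Ctrl, 2181 and 1628 in LPS, 1574 and 744.5 in Eff, with 2628 and 1749 in LPSEff. Eff replicate 1 reached nearly the level of the stimulated samples, whereas Eff replicate 2 lay within Ctrl. Ch25h rose by 1.64 ± 0.39 (SE) on the log2 scale in naïve Mϕ (limma adjusted p = 0.019), a call lost without Ctrl replicate 1 or LPS replicate 1 and with equal totals (limma adjusted p = 0.0506). In efferocytic Mϕ the log2 fold change was 0.99 ± 0.39, with a limma adjusted p of 0.124 that became 0.0276 with the replicate block. The efferocytosis effect without stimulation was 3.31-fold in replicate 1 and 0.974-fold in replicate 2 (limma adjusted p = 0.862).

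**Figure D3:**
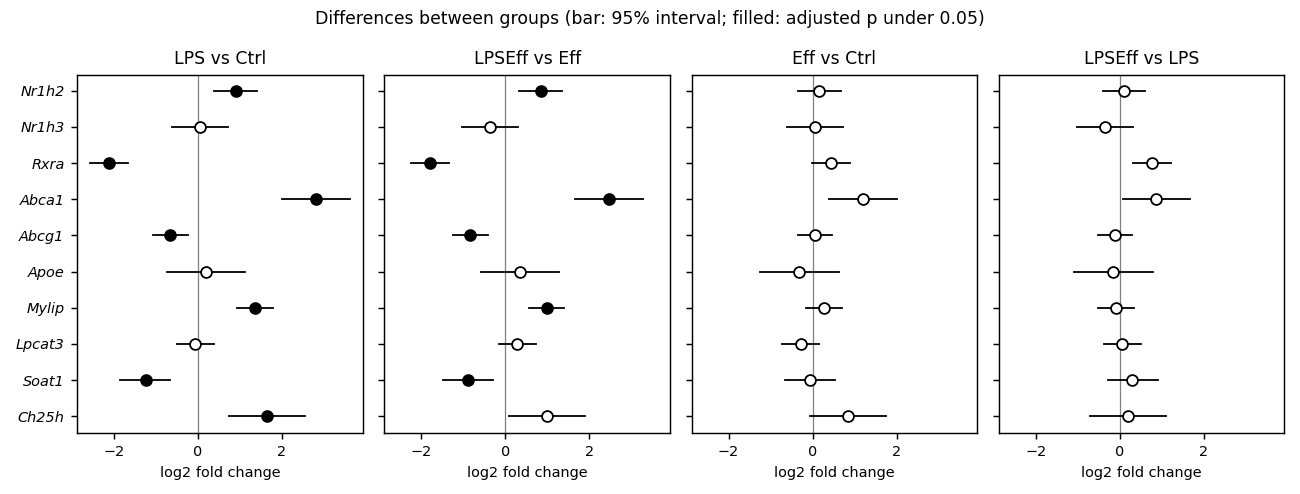
Log2 fold changes of the 10 members in 4 comparisons, with bars for the 95% interval and filled points where the limma adjusted p was under 0.05. The 7 and 6 filled points lie in both LPS/IFNγ comparisons, Abca1 at 2.81 and 2.48 and Rxra at -2.11 and -1.79 being the farthest from 0, and 0 points are filled for efferocytosis.

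Efferocytosis itself, compared with Ctrl or, under stimulation, with LPS, gave 0 calls among the 10 members in either comparison in limma, where 0.251% and 0.773% of all tested genes were called. At an unadjusted p under 0.05, it gave 1 member (Abca1) without and 2 (Rxra, Abca1) with stimulation, where 1000 and 1679 of all 16309 tested genes passed. The same numbers of all genes stand beside the unadjusted counts of the other lists. EdgeR and DESeq2 on the recovered reads also called 0 members in both comparisons. Both LPS/IFNγ comparisons share no samples with each other, but each efferocytosis comparison shares a group with each of them. Whether LPS/IFNγ acted differently in efferocytic than in naïve Mϕ was tested as an interaction, which called 0 members and 0.0% of all genes, with 0 members at an unadjusted p under 0.05 and 0 members in edgeR and DESeq2. The differences between both stimulation effects had 95% intervals of -1.46 to 0.80 for Abca1, -0.32 to 0.97 for Rxra, -0.97 to 0.24 for Mylip, -0.48 to 1.20 for Soat1 and -1.94 to 0.62 for Ch25h on the log2 scale. The intervals of Abca1, Soat1, Ch25h, Nr1h3 and Apoe thus include differences of more than 2-fold between the stimulation effects of naïve and efferocytic Mϕ.

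Because samples with equal replicate numbers varied together, the fit was repeated with the replicate block. The calls then were 7 of 10 in naïve (4 higher, 3 lower) and 7 of 10 in efferocytic Mϕ (4 higher, 3 lower). The background was then 41.2% (20.5% higher, 20.7% lower) and 37.0% (19.0% higher, 18.0% lower). Efferocytosis called 0 members without stimulation (2.67% of all genes) and 1, Rxra, with it (6.97% of all genes, 4.32% higher). The interaction called 0 members and 0.0% of all genes.

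Of 15 other LXR target genes, 11 were tested. LPS/IFNγ raised 2 and lowered 3 of them in naïve Mϕ. Tgm2, a transglutaminase linked to uptake of dying cells, went from 977 and 647 in Ctrl to 9744 and 4901 in LPS (log2 fold change 3.12, limma adjusted p = 0.00129), and Mertk, an efferocytosis receptor, rose by 1.89 (limma adjusted p = 0.0111). The genes of fatty acid synthesis and desaturation, Fasn, Scd2 and Scd1, fell by 2.28, 2.17 and 1.01. In efferocytic Mϕ, Tgm2 rose by 3.21, Mertk by 2.20, and Fasn fell by 1.19. Srebf1, through which LXR drives lipogenesis, was at 676 to 1162 in all samples and was not called (log2 fold changes from -0.45 to 0.37). With the replicate block, 2 were called higher and 5 lower in naïve Mϕ, and 2 higher and 3 lower in efferocytic Mϕ. Over all tested genes, LPS/IFNγ called 24.0% and 19.7% in limma and 41.2% and 37.0% with the replicate block.

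Scd1, a stearoyl-CoA desaturase, was the 1 tested LXR target that was called for efferocytosis. Scd1 was at 754 and 688 in Ctrl, 403.5 and 316 in LPS, 166 and 186 in Eff, with 163 and 159 in LPSEff. It fell by 2.03 without stimulation (limma adjusted p = 0.0125, called in 4 of 8 fits without a sample and lost without any Ctrl or Eff sample) and by 1.15 with it (limma adjusted p = 0.049, in 0 of 8). The efferocytic samples were all below the naïve ones. With the replicate block, Scd2 and Lpl were also called lower without stimulation, and with stimulation Lpl was called lower and Tgm2 higher.

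Among the 18 tested of 19 retinoid X receptor partners and coregulators, LPS/IFNγ called 1 in naïve and 1 in efferocytic Mϕ. Over all tested genes, the shares called were 24.0% and 19.7%. Nrip1, a cofactor of nuclear receptors, rose by 0.79 in naïve Mϕ (limma adjusted p = 0.0154), a call lost with equal totals (log2 fold change 0.39, limma adjusted p = 0.113) and without either Ctrl sample or LPS replicate 2. The counts depended on the settings, with 5 and 9 of 18 called with equal totals, 2 and 0 in edgeR, and 0 to 4 and 0 to 1 when a sample was left out. Over all 16309 tested genes, LPS/IFNγ called 5735 and 5578 with equal totals and 3991 and 3509 in edgeR. Efferocytosis called 0 of 18 in limma either without or with stimulation, with 0 and 2 at an unadjusted p under 0.05, and 0 in edgeR and DESeq2. With the replicate block, LPS/IFNγ called 7 and 2 of the 18 and efferocytosis 0 and 2, the last being Ncoa2 and Nrip1, both lower. The block called 41.2% and 37.0% of all tested genes for LPS/IFNγ and 2.67% and 6.97% for efferocytosis.

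Of the 10 enzymes and receptors of oxysterols, 8 were tested. LPS/IFNγ lowered 3 of them in naïve and 2 in efferocytic Mϕ. Lower calls made up 11.6% and 8.95% of all tested genes. Dhcr7 and Cyp11a1 fell in naïve Mϕ by 2.65 and 1.63 on the log2 scale, and Cyp11a1 and Dhcr7 in efferocytic Mϕ by 1.84 and 1.34. With the replicate block, LPS/IFNγ called 3 lower and 1 higher in naïve and 2 lower and 1 higher in efferocytic Mϕ, the latter being Gpr183, a receptor for oxysterols. The block called 41.2% and 37.0% of all tested genes. Gpr183 was at 152 and 399 in Ctrl, 563 and 948.5 in LPS, 92.0 and 224 in Eff, with 442 and 438 in LPSEff. Its log2 fold changes of 1.56 and 1.61 were not called without the block (limma adjusted p = 0.0664 and 0.0681, with the block 0.00113 and 0.00107). Dhcr7 makes a late step of cholesterol synthesis, from 7-dehydrocholesterol. Cyp27a1, which makes 27-hydroxycholesterol, was at 32.4 and 54.9 in Ctrl, 38.8 and 81.2 in LPS, 14.0 and 25.4 in Eff, with 25.3 and 26.6 in LPSEff, and its log2 fold changes of -1.12 and -1.08 with efferocytosis were not called (limma adjusted p = 0.801 and 0.496). Efferocytosis without stimulation called 0 of the 8 in limma and edgeR, 1 in DESeq2 and, with the replicate block, 2, both lower, of which 1 was Dhcr7, with 3 at an unadjusted p under 0.05. With stimulation it called 0 in each of these fits, with 0 at an unadjusted p under 0.05.

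Of 25 genes of cholesterol traffic, uptake and ester turnover, 24 were tested, and LPS/IFNγ called 4 higher and 4 lower in naïve and 4 higher and 3 lower in efferocytic Mϕ (with the replicate block 7 and 8, and 6 and 7). Beside this, limma called 24.0% and 19.7% of all tested genes, and with the replicate block 41.2% and 37.0%. Cav1, the coat protein of caveolae, went from 103 and 125 in Ctrl to 1803 and 1699 in LPS (log2 fold change 3.94, limma adjusted p = 3.39e-05) and from 184 and 271 in Eff to 2472 and 2283 in LPSEff (log2 fold change 3.41). Stard3 and Gramd1a, which move sterol between membranes, rose by 1.25 and 1.15 in naïve and by 1.26 and 1.22 in efferocytic Mϕ. With equal totals, the calls of both genes were lost in both comparisons (limma adjusted p from 0.0529 to 0.106). They were also lost without Ctrl replicate 1 or LPS replicate 1 and, for Stard3, Ctrl replicate 2 in naïve Mϕ, and without either Eff sample or LPSEff replicate 1 in efferocytic Mϕ. Among the falls were Nceh1 and Scarb1, a receptor for high-density lipoprotein, which fell by 1.58 in naïve and 1.17 in efferocytic Mϕ. Npc1, which exports cholesterol from lysosomes, was at 2443 and 2561 in Ctrl and at 1323 and 1476.5 in LPS and fell by 0.84 (limma adjusted p = 0.00867). In efferocytic Mϕ, the log2 fold change of Npc1 was -0.44, which was not called (limma adjusted p = 0.105) but passed with the replicate block (limma adjusted p = 0.0235). Without stimulation, efferocytosis called 0 of the 24 in limma and edgeR and 3 in DESeq2, with 5 at an unadjusted p under 0.05, and with the replicate block it called 2 higher (Plin2 and Cav1) and 2 lower, Scarb1 among them. Efferocytosis under stimulation raised Plin2, a coat protein of lipid droplets, from 1766 and 1517 to 3652 and 4255 (log2 fold change 1.27, limma adjusted p = 0.0377), a call lost in each of the 8 fits without a sample.

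LXR and SREBP-2, the factor of sterol synthesis, are regulated by the same sterols in opposite directions. Of 18 sterol synthesis genes, taken as SREBP-2 targets, 17 were tested. Insig1 and Srebf2 are in this list as regulators and not as enzymes of synthesis. With efferocytosis the log2 fold change was below 0 for 17 of 17, with a median of -1.08 without stimulation and -0.51 with it, beside -0.01 and -0.00 over all tested genes. Of these, 1 was called without stimulation, Insig1, which fell by 1.43 (limma adjusted p = 0.0402) from 533 and 445 in Ctrl to 188 and 172 in Eff, and this call was kept in 2 of 8 fits without a sample. At an unadjusted p under 0.05 there were 16 of 17 without stimulation, beside 1000 of all 16309 tested genes. EdgeR called 0 (14 of all genes), DESeq2 4 (204 of all genes) and limma with the replicate block 11 (436 of all genes), all 11 lower. With stimulation, limma and edgeR called 0, DESeq2 1 and the replicate block 1 (Pmvk, lower), with 5 at an unadjusted p under 0.05. LPS/IFNγ lowered 4 of 17 in naïve Mϕ, with Lss, Msmo1 and Sqle down by 1.58, 1.49 and 1.44 on the log2 scale, and 1 (Lss, by 0.90) in efferocytic Mϕ. Lower calls made up 11.6% and 8.95% of all tested genes. The call of Sqle (limma adjusted p = 0.0494) was kept in 1 of 8 fits without a sample and was lost in edgeR (adjusted p = 0.0584), and that of Msmo1 was lost without either Ctrl sample or LPS replicate 1. With equal totals, LPS/IFNγ called 13 and 4 of the 17, beside 5735 and 5578 of all 16309 tested genes. With the replicate block, LPS/IFNγ called 11 lower and 1 higher (Pmvk) in naïve Mϕ and 2 lower and 1 higher (Fdps) in efferocytic Mϕ. The block called 41.2% and 37.0% of all tested genes.

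**Figure D4:**
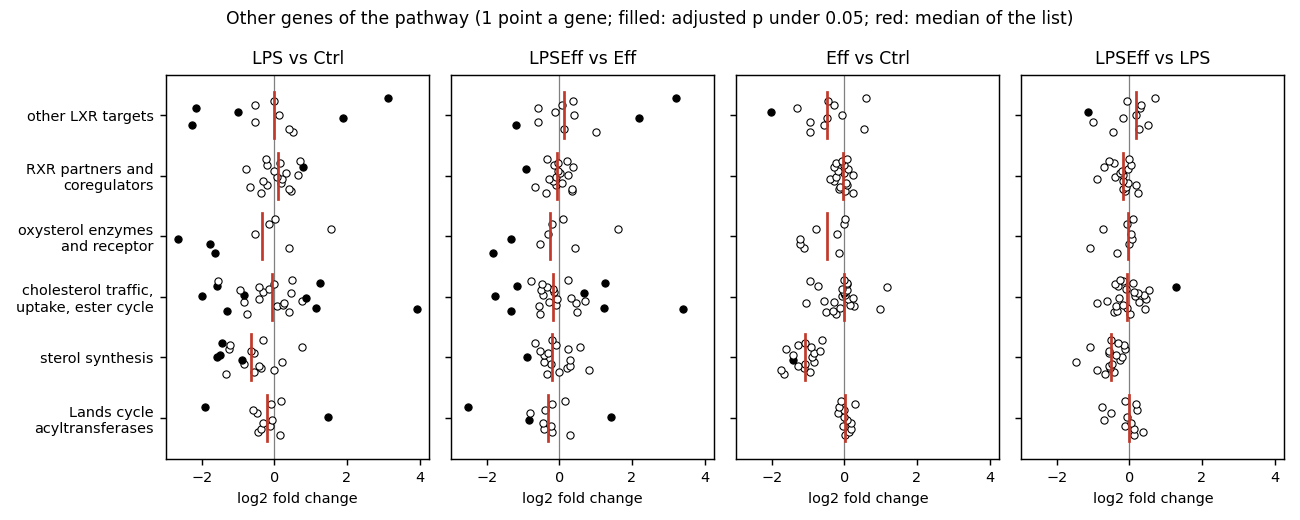
Log2 fold changes of the tested genes of 6 lists around the LXR pathway in 4 comparisons, with 1 point per gene, filled where the limma adjusted p was under 0.05, and a red bar for the median of the list. In Eff vs Ctrl, the 17 genes of the sterol synthesis list lie below 0 around a median of -1.08, and 1 of them, the regulator Insig1, is filled.

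The genes whose pattern over the 8 samples was closest to a member, by the root mean square difference of centred log2 values, were named for the 3 members with the largest range. For Abca1 these were Schip1 (0.273) and Rhou (0.287), for Rxra Prmt3 (0.177) and Cluh (0.183), and for Ch25h Cacna1d (0.219) and Fam169b (0.246). Rhou was at 13.3 and 15.6 in Ctrl, 175 and 82.3 in LPS, 27.2 and 35.3 in Eff, with 174 and 147 in LPSEff, and thus lowest in Ctrl, next in Eff and highest in both stimulated groups. The likeness was computed over samples of 4 groups and is a description only.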

How the data were processed

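Total RNA of 8 samples (4 groups of 2) was sequenced by the authors after rRNA depletion. The authors obtained the counts per gene from HTSeq in its default mode, which reads strand and drops reads shared by genes. Its input were STAR alignments to mm39 of reads that had passed adapter removal (cutadapt) and an rRNA filter (Bowtie2), as stated in the methods and the labels. Versions and the annotation release are not given in the sources used here. The deposited signal is a normalized count, the read count divided by a size factor per sample (DESeq2). Of the values of a sample, 100% came out as whole reads within a tolerance of 0.02 read, and the recovered reads were 3481288 to 12020918 per sample. Floors of 3 reads cover counting error only.

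Genes were named and placed with a GENCODE release for GRCm39, which held 54749 of the 55359 identifiers (98.9%). A model with 4 group means was fitted in limma (3.58.1, under R 4.3.3) with its trend option to log2(normalized count + 1), for 16309 genes averaging 10 or more normalized counts, with 4 residual degrees of freedom. Fold changes are on that scale, p-values are two-sided and Benjamini-Hochberg adjusted over all genes of a comparison, and a call is an adjusted p under 0.05. Same-numbered samples of different groups deviated together from their group means (correlations of 0.404 to 0.595 over the 6 pairs of groups), although the sources do not say that a number marks a shared preparation. An alternative therefore took the replicate number as a block, which left 3 residual degrees of freedom. Other alternatives were pseudocounts of 0.5 and 5, other filters, only the groups compared, equal totals, quantile normalization, tests of the recovered reads in edgeR (4.0.16) and DESeq2 (1.42.0), and leaving out each sample. Exon lengths are the union over all transcripts of a gene.

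The members and the other lists were chosen with earlier results of these data known. Besides the 10 members, genes were named that were called in a comparison (at most 3 per list and comparison by size of change), genes fixed for their place in the pathway and, for the 3 members with the largest range, the 2 genes with the nearest pattern. Gene sequences were searched on both strands in windows of 250 bases before to 50 after the start of the canonical transcript. No list was tested as a set. Some genes of the lists are counted but not reported here by name.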

Additional observations from a re-analysis of the deposited data

Results flagged for a closer look

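For 3 of the 100 tested genes of the pathway lists (3%), the samples of a comparison moved in opposite directions in both contexts without overlap between groups. Among all 16309 tested genes this held for 435 (2.67%), so that the share was near that background. Mylip was higher in both Eff than in both Ctrl samples and lower in both LPSEff than in both LPS samples, the nearest of these being 441.8 and 443.8 normalized counts, with a difference between both efferocytosis effects of -0.36 on the log2 scale. Fasn was lower in Eff than in Ctrl but higher in LPSEff than in LPS, with a difference of 1.09. Insig1 was lower in LPS than in Ctrl but higher in LPSEff than in Eff, a difference between both LPS/IFNγ effects of 1.18. Each difference was tested as an interaction in limma, and none of the 3 passed (adjusted p = 1.0 for each).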

How the results depend on the processing

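The calls of Rxra and Abca1 in both LPS/IFNγ comparisons were kept in every alternative run, those leaving out a sample included. Leaving out a sample gave 3 to 7 called members for LPS vs Ctrl, 3 to 6 for LPSEff vs Eff and 0 for both efferocytosis comparisons and the interaction. For LPS vs Ctrl the count was 3 without Ctrl replicate 1 and 4 without Ctrl replicate 2 or LPS replicate 1, and for LPSEff vs Eff it was 3 without Eff replicate 1, Eff replicate 2 or LPSEff replicate 1. Such fits keep 1 sample in a group, which is assumed to vary like the others, and 3 residual degrees of freedom. For LPSEff vs LPS the count went from 0 to 1 with the replicate block and in edgeR with the replicate block (Rxra in both). The pairing by replicate number otherwise changed 1 member call, that of Ch25h in LPSEff vs Eff. Scaling to equal totals turned the direction of uncalled values, to -0.35 for Nr1h3 and -0.21 for Apoe in LPS vs Ctrl and to -0.10 for Apoe and -0.17 for Lpcat3 in LPSEff vs Eff. Leaving out a sample turned the sign of further uncalled values, which then ranged on the log2 scale, in LPS vs Ctrl, from -0.28 to 0.38 for Nr1h3 and -0.46 to 0.83 for Apoe. In Eff vs Ctrl these ranges were -0.27 to 0.39 for Nr1h3, -0.02 to 0.14 for Abcg1, -0.96 to 0.33 for Apoe and -0.13 to 0.02 for Soat1. In LPSEff vs LPS they were -0.16 to 0.35 for Nr1h2, -0.23 to 0.01 for Abcg1, -0.33 to 0.01 for Apoe, -0.09 to 0.22 for Lpcat3, -0.06 to 0.66 for Soat1 and -0.11 to 0.48 for Ch25h. For the interaction they were -0.32 to 0.20 for Nr1h2, -0.90 to 0.24 for Abca1, -0.49 to 0.80 for Apoe and 0.00 to 0.72 for Soat1. Sterol synthesis in LPS vs Ctrl had 1 to 9 calls without a sample, beside 4 with all. The number of genes called among all tested rose from 3910 to 6717 and from 3213 to 6033 with the replicate block, and from 41 to 436 and from 126 to 1137 for efferocytosis, where DESeq2 called 204 and 368. Depth limits Apoe and Nr1h3 most, with 69 to 158 reads per sample.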
